A study of Rattus norvegicus with 12 samples.

Results

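Prolactin and growth hormone act on mammary cells through a short chain of proteins that begins at the cell surface and ends at the DNA, and 9 genes of that chain are described here by name. They are the receptors Prlr and Ghr, the kinase Jak2, the transcription factors Stat5a and Stat5b, and the inhibitors Cish, Socs1, Socs2 and Socs3. The genes were taken by symbol, and each had 1 probe set with that symbol alone, so the set holds 9 of 29214 probe sets and 9 of the 14506 genes with such a probe set. All 9 passed the filter on low intensities and were tested. The samples were mammary glands of 12 female Lewis rats, ovariectomized at about 10 weeks of age and left for 14 days, with 1 array per rat and 3 rats per group. One group received vehicle (DMSO in castor oil), and the others received E2 (17β-estradiol, 4 μg/kg/day), 3-MC (3-methylcholanthrene, a polycyclic hydrocarbon that activates the aryl hydrocarbon receptor, 15 mg/kg/day) or E2 + 3-MC. The injections were subcutaneous, 3 were given at intervals of 24 hr, and glands were collected 24 hr after the last; the labels state a treatment time of 48 h. Every rat lacked ovaries, the vehicle rats included, so the groups differ in what was injected into animals without ovarian hormones. The question was how 3-MC alters the response of the gland to E2.

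Prolactin binding brings receptor chains together and activates JAK2, which phosphorylates the receptor and the STAT5 proteins. Phosphorylated STAT5 moves to the nucleus, binds the sequence TTC followed, a few bases on, by GAA, and turns on milk protein genes as well as the genes of its own inhibitors, CISH and the SOCS proteins. The growth hormone receptor uses the same kinase and the same STATs. In the mammary gland the prolactin receptor sits mainly on luminal epithelial cells and is needed for alveolar growth in pregnancy, whereas the growth hormone receptor is prominent in stroma and fat. Signaling of this kind works by phosphorylation, which an RNA array does not measure.

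The sequences before the start sites are shown for Prlr, the member whose level differed most between groups, and for Cish, the member with the most STAT5 sites there. Promoter sequences of 8 members (from 250 bases before to 50 after the start) were found in RefSeq for the build GRCr8, and Socs2 was not matched. They were searched on both strands for TTCNNNGAA (the STAT5 site), GGTCANNNTGACC (the estrogen response element, bound by the estrogen receptor) and GCGTG (the core of the xenobiotic response element, bound by the aryl hydrocarbon receptor). Prlr has a promoter at each of 2 start sites. The 250 bases before the first, chr2:60861515-60861764 on the plus strand, hold 2 copies of the xenobiotic core, both on the minus strand, 221 and 102 bases before the start and shown in capitals as CACGC. The 250 bases before the second, chr2:60909409-60909658 on the plus strand, hold 1 STAT5 site, 176 bases before the start and in capitals. The 250 bases before the start of Cish, chr8:116850719-116850968 on the plus strand, hold 4 STAT5 sites in capitals, at 241, 230, 136 and 119 bases before it.
Prlr, first start site: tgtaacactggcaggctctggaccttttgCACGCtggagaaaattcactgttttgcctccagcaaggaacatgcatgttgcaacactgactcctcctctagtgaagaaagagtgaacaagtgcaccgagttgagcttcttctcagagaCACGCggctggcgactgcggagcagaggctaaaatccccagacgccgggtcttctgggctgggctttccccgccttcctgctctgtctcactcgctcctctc
Prlr, second start site: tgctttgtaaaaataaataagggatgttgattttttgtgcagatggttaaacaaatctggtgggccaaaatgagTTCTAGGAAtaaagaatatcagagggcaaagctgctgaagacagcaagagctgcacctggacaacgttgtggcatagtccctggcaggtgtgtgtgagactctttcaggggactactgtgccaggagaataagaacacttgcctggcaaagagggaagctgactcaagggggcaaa
Cish: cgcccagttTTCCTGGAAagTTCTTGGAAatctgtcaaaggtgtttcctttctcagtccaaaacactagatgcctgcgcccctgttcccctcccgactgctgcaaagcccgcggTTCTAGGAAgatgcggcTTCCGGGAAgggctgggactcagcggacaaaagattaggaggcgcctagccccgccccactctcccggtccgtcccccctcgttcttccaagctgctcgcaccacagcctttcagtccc

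A STAT5 site was present in 8.87% of all 33469 promoters searched, and 2 of them, or 0.00598%, held at least 4 sites, the promoter of Cish included. The xenobiotic core was present in 29.7% of promoters and the estrogen response element in 0.0269%. Socs1 held 1 STAT5 site, 196 bases before its start, and Socs3 held 3 copies of the xenobiotic core. In the windows of Ghr, Jak2, Stat5a and Stat5b none of the 3 motifs was found, and none of the 8 matched members held the estrogen response element within its 300 bases. The windows of Prlr, Ghr and Socs3 lie inside the gene spans given below, so they precede internal starts. That of Ghr is chr2:54432076-54432325 on the minus strand. Sequence before the outer ends of these 3 genes was not searched. The window of Stat5b overlaps its gene in part. These matches describe letters in a window and are not measurements of binding.

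On GRCr8, Prlr spans 60861391-61051883 of chromosome 2 and Ghr spans 54269066-54532595 of the same chromosome. Jak2 lies on chromosome 1 (236408905-236468769), Cish on chromosome 8 (116850969-116855917) and Socs2 on chromosome 7 (31890564-31932092). Chromosome 10 carries Socs1 (5389574-5391265), Socs3 (103692579-103695975), Stat5b (86205148-86276178) and, next to it, Stat5a (86285859-86310187). The array measures each gene with a whole-transcript probe set, and the level of a probe set can be compared between rats but not with that of another probe set.

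The glands carried the markers of their tissue. Epcam, an epithelial adhesion protein, ran from 637 to 1373 in intensity over the 12 arrays, and Adipoq, an adipocyte hormone, from 2765 to 4347. The amount of skeletal muscle differed widely between glands: the intensity of Acta1, the actin of skeletal muscle, was 102 in vehicle rat 3 and 84.2 in 3-MC rat 3, and between 3131 and 6979 in the other rats of these groups. The summed intensity of 12 muscle markers was 549 to 36789 with vehicle and 627 to 27289 with 3-MC. It was 1147 to 7122 with E2 and 757 to 2238 with E2 + 3-MC. Array medians ran from 85.7 to 109.5, and log2 intensities of any pair of arrays correlated at 0.952 to 0.988. In glands taken whole, fewer cells of a type and less RNA per cell cannot be told apart.

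Prlr, the prolactin receptor, rose with E2, and no other member passed in any comparison. Its intensity was 219.9, 193 and 155 in the vehicle rats, 669.7, 718 and 591 with E2, 303, 252 and 209 with 3-MC, and 527, 365 and 499.5 with E2 + 3-MC. The means were 189 ± 32.3, 659.5 ± 64.0, 255 ± 46.6 and 464 ± 86.3 (SD, n = 3 rats each). The order of the groups was therefore vehicle, 3-MC, E2 + 3-MC and E2, and only vehicle and 3-MC, next to each other at the bottom, overlapped. No label pairs the rats, and the main model has no pairing. Rats of the same number in these 2 groups deviated together over all probe sets, and in their skeletal muscle markers as well. Between same-numbered rats Prlr was higher with 3-MC, by 1.38, 1.31 and 1.35 times. This pairing was chosen after seeing the data, and Prlr did not pass with it or without it. The E2 and E2 + 3-MC rats lay above every rat without E2.

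With E2 alone Prlr rose 3.31-fold over vehicle, a log2 change of 1.73 (SE 0.18, 95% interval 1.35 to 2.10, limma adjusted p = 2.11e-04), which ranked 19 by p among the 23371 probe sets tested. It was the only member that passed the threshold, set at 1.5-fold or more together with an adjusted p under 0.05. That makes 1 of 9, beside 1.58% of all probe sets in either direction and 1.30% among those that were higher. With E2 + 3-MC Prlr rose 2.33-fold over vehicle (log2 1.22, 95% interval 0.84 to 1.60, limma adjusted p = 0.00892), again the only member to pass, beside 0.163% of all probe sets and 0.154% that were higher. Its call with E2 + 3-MC was lost without E2+3-MC rat 1 (adjusted p = 0.0709) or without E2+3-MC rat 3 (adjusted p = 0.0824). With E2 alone the call held without any single rat, the highest adjusted p being 0.00293.

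The E2 response of Prlr was smaller in rats that also received 3-MC, by a difference that did not pass over all probe sets. E2 + 3-MC against E2 gave a log2 difference of -0.51 (95% interval -0.89 to -0.13), 1.42-fold lower, with a limma adjusted p of 0.480. Against 3-MC alone, the rats given both had 1.77-fold more Prlr (log2 0.82, 95% interval 0.44 to 1.20, limma adjusted p = 0.167), compared with 3.31-fold for E2 in rats without 3-MC. The interaction, the difference between these log2 changes, was -0.90 (95% interval -1.44 to -0.37, limma adjusted p = 0.921). It kept its sign in every setting tried, from -1.03 to -0.75. 3-MC alone gave 1.32-fold (log2 0.40, 95% interval 0.02 to 0.78, limma adjusted p = 0.920, or 0.525 with the rats as pairs in these 6 arrays). No member passed in 3-MC against vehicle, E2 + 3-MC against E2, E2 + 3-MC against 3-MC or the interaction, where 0%, 0%, 0.111% and 0% of all probe sets passed. Luminal epithelium markers, given below, also had a negative median log2 value in E2 + 3-MC against E2 and in the interaction.

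Counts at an unadjusted p under 0.05 were read against the same share of all probe sets. With E2 3 members were below it (Prlr, Ghr and Jak2) beside 11.7% of all probe sets, with 3-MC 3 (Prlr, Jak2 and Socs3) beside 4.24%, and with E2 + 3-MC against vehicle 4 (Prlr, Jak2, Socs1 and Socs3) beside 9.72%. E2 + 3-MC against E2 had 2 (Prlr and Socs1) beside 8.77%, E2 + 3-MC against 3-MC had 3 (Prlr, Ghr and Socs1) beside 5.03%, and the interaction had 2 (Prlr and Socs1) beside 4.42%. The median log2 change of the 9 members was 0.28 with E2, 0.14 with 3-MC and 0.26 with both, against medians of 0.02, 0.06 and 0.07 over all tested probe sets. These 3 comparisons share the vehicle rats.

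**Figure D1:**
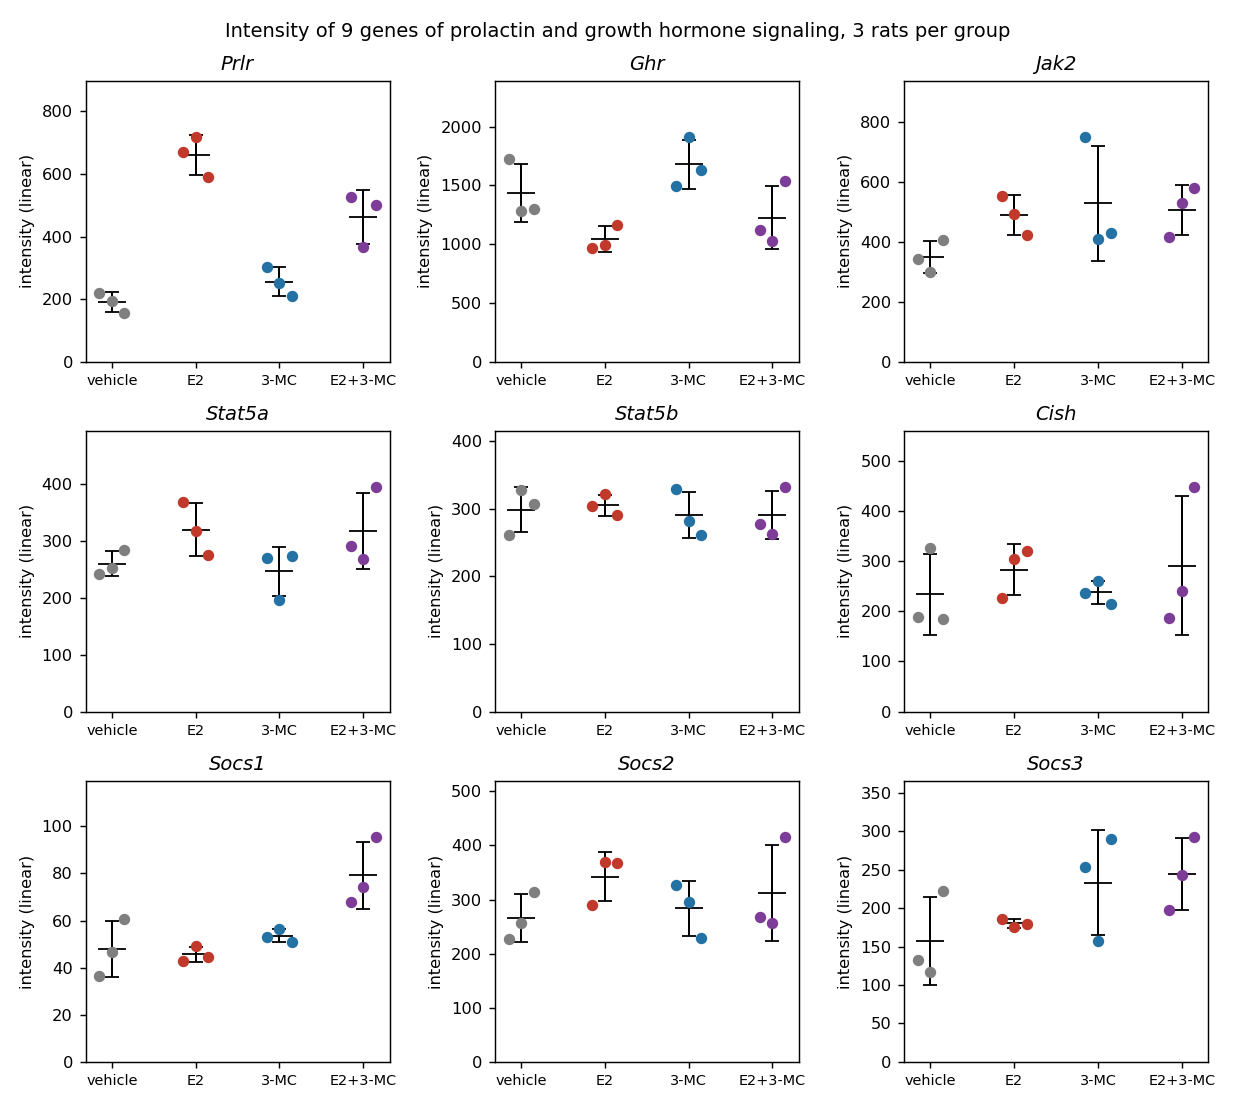
Linear intensity (vertical axis) of each of the 9 genes by group (horizontal axis), with 1 point per rat in the order of rats 1 to 3, a bar for the mean and error bars of 1 SD (n = 3). The E2 and E2 + 3-MC points of Prlr lie above all points of the other groups, the E2 + 3-MC points of Socs1 lie above all others, and the groups of Stat5b overlap throughout.

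Ghr, the growth hormone receptor, ran the other way. Its intensities were 1723, 1286 and 1295 with vehicle, 965, 989 and 1166 with E2, 1498, 1910.5 and 1627 with 3-MC, and 1116, 1026 and 1533 with E2 + 3-MC. Every E2 rat lay below every vehicle rat, while the E2 + 3-MC rats overlapped each of the other groups. E2 against vehicle gave a log2 difference of -0.45 (95% interval -0.82 to -0.08, limma adjusted p = 0.298), and E2 + 3-MC against 3-MC gave -0.46 (limma adjusted p = 0.892). The difference between these log2 values, the interaction, was -0.01 with a 95% interval from -0.54 to 0.51. None of these passed.

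The change of Prlr and the lower values of Ghr came with shifts in cell type markers. Of 21 luminal epithelium markers tested, 8 rose with E2 and none fell, beside 1.58% of all probe sets that passed in either direction. The summed intensity of the 21 was 12729.6 to 16216 in the E2 rats against 8472 to 10051 with vehicle. It was 8429.9 to 11122 with 3-MC and 9779 to 12648 with E2 + 3-MC. On the log2 scale, with each rat set against the vehicle mean and the median taken over the markers, the luminal list stood at 0.41 to 0.70 in the E2 rats, where Prlr stood at 1.58 to 1.85. Of 12 adipocyte markers, 3 fell with E2 and none rose, beside the same 1.58%. The summed intensity of the 12 was 20136 to 23242 with E2 against 25074 to 29978 with vehicle. It was 24959 to 30003 with 3-MC and 21271 to 30345 with E2 + 3-MC. The adipocyte list stood at -0.49 to -0.27 in the E2 rats and Ghr at -0.55 to -0.28. Fibroblast and endothelial markers were also lower with E2, although none passed: 6 of 12 fibroblast and matrix markers and 8 of 9 endothelial markers were lower at an unadjusted p under 0.05, beside 11.7% of all probe sets in either direction. The median log2 changes of these 2 lists were -0.47 and -0.48. Their summed intensities were 13511 to 17053 and 3546 to 4102 with E2, 17377 to 23214 and 4692 to 5844 with vehicle, 18940.3 to 22994 and 4637 to 5855 with 3-MC, and 13826 to 19758 and 3875 to 4975 with E2 + 3-MC. Of 9 basal and myoepithelial markers, 2 rose with E2, the keratins Krt14 (log2 1.36) and Krt17 (log2 1.18), beside 1.58% of all probe sets in either direction. The list as a whole did not rise: its median log2 change was 0.03 and its lowest -0.27. At an unadjusted p under 0.05, 3 of the 9 were higher and 0 lower. The summed intensity of the list was 8401 to 11050.1 with E2 and 8335 to 9684 with vehicle. It was 7340.0 to 9218 with 3-MC and 7473 to 8481 with E2 + 3-MC. The skeletal muscle markers had median log2 changes from vehicle of -1.37 with E2 and -2.44 with E2 + 3-MC. None of them passed, and they differed widely between the vehicle rats.

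Leaving out certain rats lowered these counts of calls: luminal markers that rose numbered 1 without E2 rat 1, 0 without E2 rat 2, 3 without vehicle rat 1 and 4 without vehicle rat 3, and adipocyte markers that fell numbered 1 without E2 rat 1, E2 rat 2 or vehicle rat 1. The luminal count was 9 without 3-MC rat 1, and 6 or 8 without any other rat. The adipocyte count was 2 or 3 without any other rat. The 2 basal calls became 0 without E2 rat 1, E2 rat 2, vehicle rat 1 or vehicle rat 2, and 1 without vehicle rat 3. No marker was at 0 on any array. The part of these shifts in the values of Prlr and Ghr was not tested.

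Jak2, the kinase bound to both receptors, read 343, 298 and 406 with vehicle, 555, 494 and 422 with E2, 751, 409 and 429 with 3-MC, and 417, 529 and 580.1 with E2 + 3-MC. All 9 treated rats lay above the 3 vehicle rats, by small margins at the lower end, and the treated groups overlapped one another. Its log2 differences from vehicle were 0.48 with E2, 0.54 with 3-MC and 0.52 with both, with limma adjusted p of 0.404, 0.920 and 0.471. The 3-MC value included rat 1, the highest of all 12.

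The genes of the STAT5 proteins did not pass in any comparison. Stat5a and Stat5b are neighbours on chromosome 10 and close relatives in sequence, so a probe set of either could also take up transcripts of its neighbour. Stat5a, the form that dominates in mammary epithelium, read 242, 253 and 284 with vehicle, 368, 317 and 275 with E2, 269, 197 and 274 with 3-MC, and 291, 269 and 394 with E2 + 3-MC. Each group overlapped the vehicle rats, and the E2 log2 difference was 0.28 (95% interval -0.09 to 0.65, limma adjusted p = 0.601). Stat5b read 262, 327 and 307 with vehicle, 304, 321 and 290.4 with E2, 329, 282 and 261 with 3-MC, and 277, 263 and 332 with E2 + 3-MC. Its 12 values fell between 261 and 332, the narrowest spread of the set relative to its level, and the E2 difference of 0.04 had a 95% interval from -0.26 to 0.33.

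Cish, the inhibitor that competes with STAT5 for the activated receptor and whose promoter is printed above, read 189, 327 and 185 with vehicle, 226, 304 and 319 with E2, 236, 261 and 215 with 3-MC, and 186, 240.2 and 447 with E2 + 3-MC. The groups overlapped one another, and the highest and lowest rats were 261 and 215 with 3-MC but 447 and 186 with E2 + 3-MC. The E2 log2 difference was 0.29 with a 95% interval of -0.30 to 0.88 (limma adjusted p = 0.774), an interval that takes in both no difference and a 1.84-fold higher level. Socs2, an inhibitor mainly of growth hormone signaling, read 226, 257 and 314 with vehicle, 290.5, 369.7 and 367 with E2, 327, 296 and 228 with 3-MC, and 267, 256 and 415 with E2 + 3-MC. Its E2 difference was 0.35 (95% interval -0.07 to 0.77, limma adjusted p = 0.540), with overlap between the groups.

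Socs1, which blocks JAK kinases directly, set the E2 + 3-MC rats apart. Its intensity was low on every array, at 36.6, 46.5 and 60.5 with vehicle, 42.9, 49.3 and 44.6 with E2, 53.2, 56.4 and 50.9 with 3-MC, and 68.1, 74.4 and 95.3 with E2 + 3-MC. The 3 rats given both lay above the other 9. E2 + 3-MC against E2 gave 1.54-fold (log2 0.62, 95% interval 0.30 to 0.94), which ranked 70 of 23371 by p and had a limma adjusted p of 0.371. Against vehicle the log2 difference was 0.58 (limma adjusted p = 0.272) and against 3-MC 0.45 (limma adjusted p = 0.801). In limma on the E2 and E2 + 3-MC arrays alone it passed (adjusted p = 0.0472), as did 359 of all probe sets, or 1.54%, where none had passed with 4 groups.

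Socs3, induced by many cytokines and an inhibitor of receptors of the interleukin 6 family, read 133, 117 and 223 with vehicle, 186, 175 and 179.6 with E2, 253, 157 and 290.3 with 3-MC, and 198, 244 and 292 with E2 + 3-MC. The E2 + 3-MC rats lay above the E2 rats but not above all the others. Its log2 differences from vehicle were 0.23 with E2, 0.53 with 3-MC (limma adjusted p = 0.920) and 0.62 with both (limma adjusted p = 0.449).

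Markers of immune cells, like Socs1 and Socs3, were higher in E2 + 3-MC than in E2 rats. Of 13 myeloid markers, 10 were higher in E2 + 3-MC than in E2 at an unadjusted p under 0.05, and of 9 lymphocyte markers 8 were, although none passed after adjustment. The share of all probe sets at that p was 8.77% in either direction. The summed myeloid intensity was 4749 to 11071 with vehicle, 5708 to 6744 with E2, 7074 to 14849.8 with 3-MC and 8289 to 15075 with E2 + 3-MC. The lymphocyte sum was 722 to 1463, 717 to 844, 968 to 2259 and 1096 to 2348 in the same order. Within the E2 + 3-MC group, rats 1, 2 and 3 stood at 0.41, 0.52 and 0.82 for Socs1 and at 0.35, 0.63 and 0.88 for Socs3, as log2 differences from the vehicle mean. The myeloid list stood at 0.12, 0.68 and 0.83 in these rats, in the same order, and the lymphocyte list at 0.22, 1.27 and 0.80, with rat 2 the highest. In 3-MC rats 1, 2 and 3 the myeloid list stood at 1.04, 0.05 and 0.86 and the lymphocyte list at 1.12, -0.01 and 0.32. Socs3 stood at 0.68, 0.05 and 0.87 in those 3-MC rats. Socs1 stood at 0.13, 0.20 and 0.08 there, in another order than either list. The part of these cells in the Socs1 and Socs3 values was not tested.

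**Figure D2:**
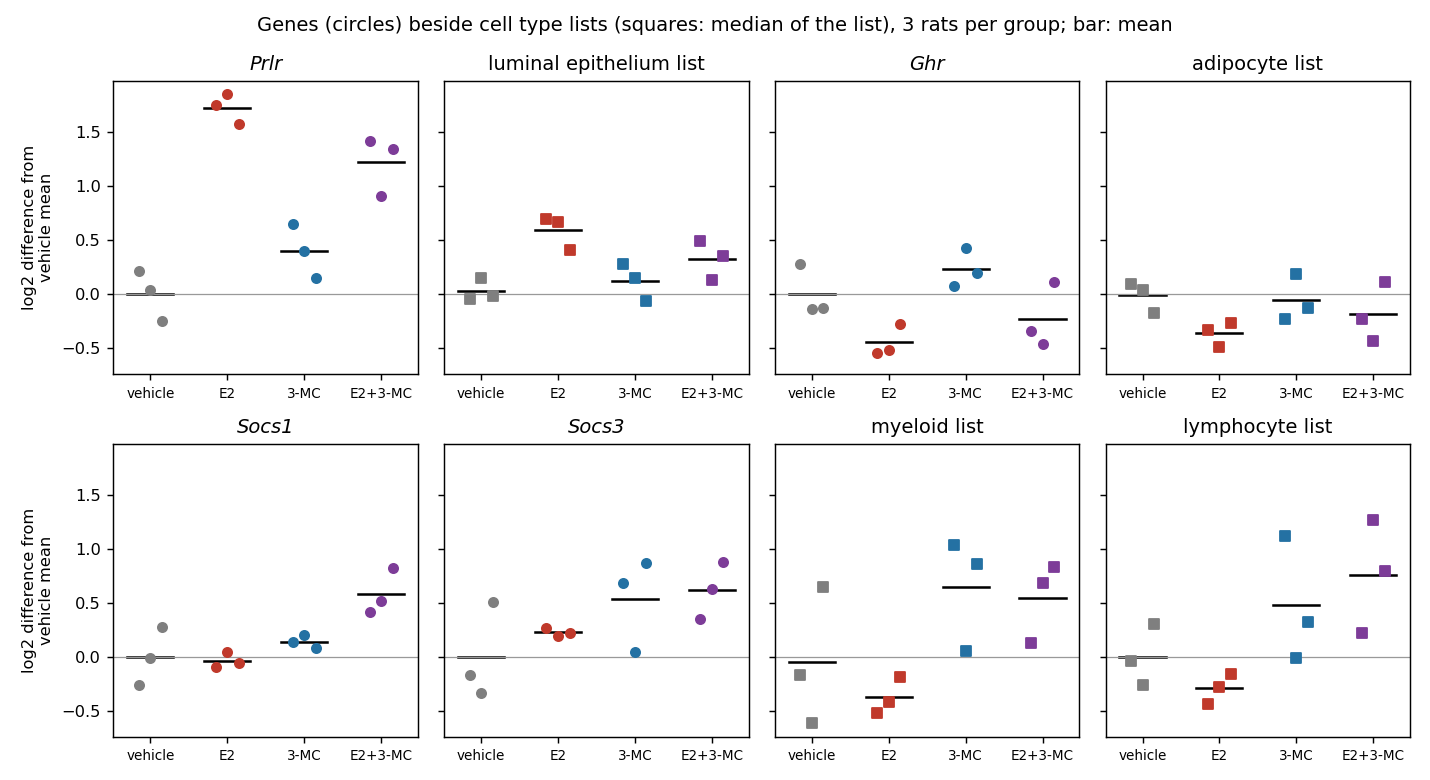
Log2 difference from the vehicle mean (vertical axis) by group, for 4 genes (circles) and for the cell type lists they were set beside (squares, the median over the markers of a list), with 1 point per rat and a bar for the mean of 3 rats. Prlr in the E2 rats (1.58 to 1.85) lies above the luminal list in the same rats (0.41 to 0.70), Ghr and the adipocyte list are both lower there, and the E2 + 3-MC rats are above the E2 rats in Socs1, Socs3 and both immune lists.

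Members whose groups did not overlap were counted beside the same share of all probe sets. E2 and vehicle did not overlap in 3 members (Prlr, Ghr and Jak2) beside 18.1% of all probe sets, 3-MC and vehicle in 1 (Jak2) beside 7.03%, and E2 + 3-MC and vehicle in 3 (Prlr, Jak2 and Socs1) beside 14.2%. E2 + 3-MC and E2 did not overlap in 3 (Prlr, Socs1 and Socs3) beside 17.9%, and E2 + 3-MC and 3-MC in 2 (Prlr and Socs1) beside 7.96%.

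**Figure D3:**
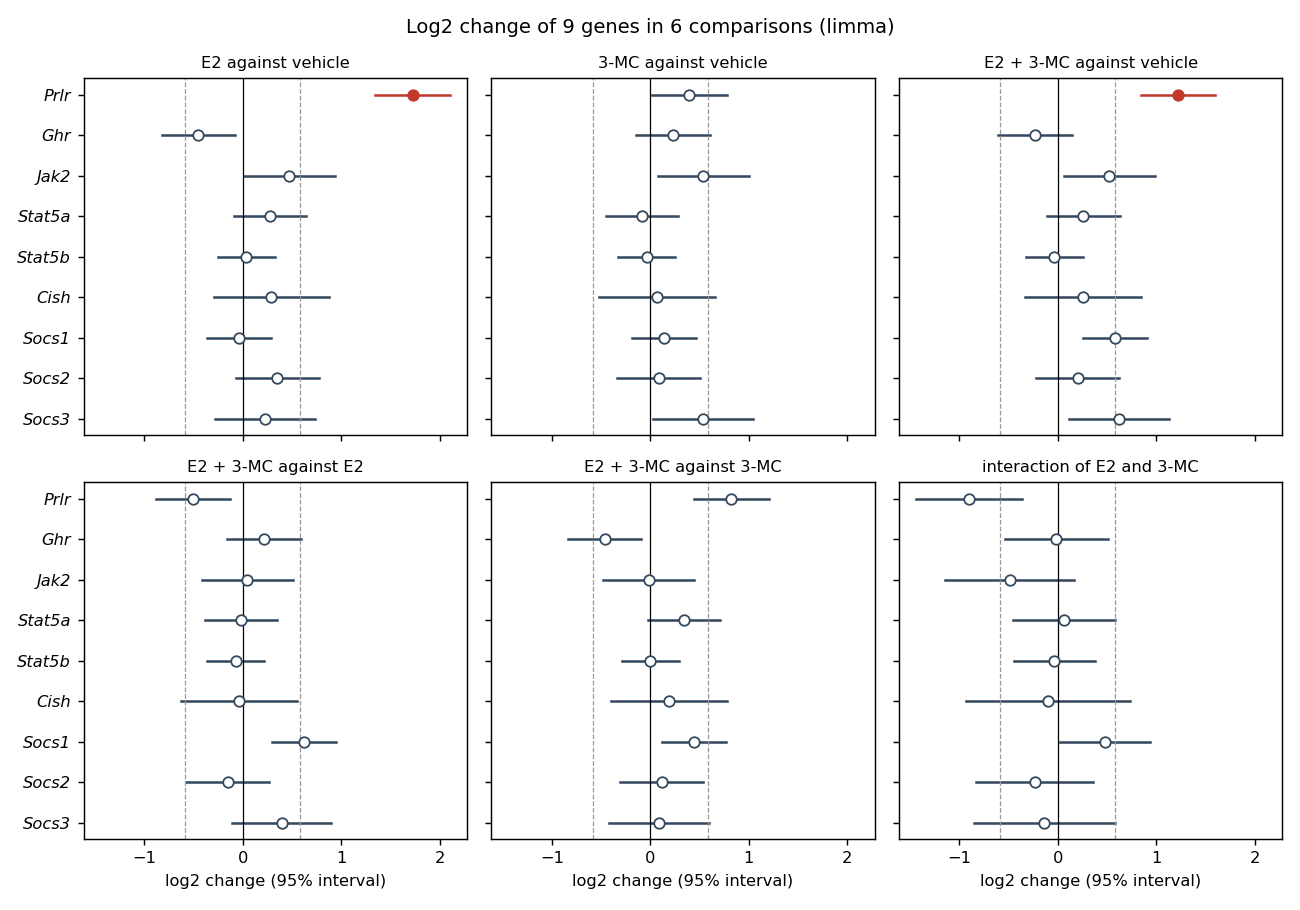
Log2 change (horizontal axis, points) with its 95% interval (lines) for the 9 genes in 6 comparisons, from limma, with dashed lines at a 1.5-fold difference and filled red points where the threshold was passed. The red points are those of Prlr, at 1.73 for E2 and 1.22 for E2 + 3-MC against vehicle.

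None of the genes of the hormones themselves passed in any comparison. Prl, the gene of prolactin, is made chiefly in the pituitary, and in these glands it read 36.0 to 47.2 over all 12 arrays. Gh1, growth hormone, read 39.9 to 73.1. Ghrh, the hypothalamic hormone that releases it, read 57.4 to 79.2, and Prlh, prolactin releasing hormone, 161 to 272. With E2 their log2 differences from vehicle were -0.01 for Prl, 0.07 for Gh1, 0.03 for Ghrh and -0.18 for Prlh, and none had an unadjusted p under 0.05 in any comparison. Hormone in the blood was not measured by these arrays.

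The other receptors, kinases and inhibitors of JAK and STAT signaling gave 1 call in all. None of 17 other cytokine receptors and none of 6 other JAK kinases and STAT factors passed in any comparison. At an unadjusted p under 0.05, none of either list was counted with E2, beside 11.7% of all probe sets. In E2 + 3-MC against E2, 4 of 17 and 2 of 6 were higher, beside 8.77% of all probe sets in either direction. Of 14 other SOCS, PIAS and phosphatase inhibitors, 1 passed with E2, beside 1.58% of all probe sets in either direction. This gene, Ptpn1, rose. It encodes a phosphatase that acts on JAK2 and STAT5, and it read 145, 120.2 and 189 with vehicle, 257, 265 and 257 with E2, 253, 207 and 210.1 with 3-MC, and 212, 249.6 and 292 with E2 + 3-MC. All 9 treated rats lay above the vehicle rats, and the E2 log2 change was 0.74 (limma adjusted p = 0.0352). The call was lost without vehicle rat 1 or 2, without any of the E2 rats, or without E2+3-MC rat 2.

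Of 18 genes that STAT5 is known to regulate in the mammary gland, 3 rose with E2, and all 3 encode milk proteins: the caseins Csn2 and Csn1s2a and the whey protein Wap. These 3 of 18 stood beside 1.58% of all probe sets in either direction, and the median log2 change of the list was 0.23. At an unadjusted p under 0.05, 8 were higher and 3 lower, beside 11.7% of all probe sets in either direction. Wap read 415, 351 and 269 with vehicle, 1188, 1145 and 1190.3 with E2, 446, 318 and 189.7 with 3-MC, and 1181, 557 and 1621 with E2 + 3-MC. The 3 E2 rats were nearly equal, whereas the E2 + 3-MC rats spread widely, with rat 2 the lowest of them. The E2 log2 change of Wap was 1.74 (limma adjusted p = 0.0208), and with E2 + 3-MC the difference from vehicle was 1.55 (limma adjusted p = 0.133).

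Csn2, the gene of beta-casein, read 85.8, 103 and 80.8 with vehicle, 1578, 1500.1 and 1853 with E2, 308, 39.2 and 135 with 3-MC, and 1652, 502 and 1744 with E2 + 3-MC. Csn1s2a read 59.2, 69.8 and 69.2, then 1039, 1165 and 1333, then 59.0, 27.6 and 50.7, then 883, 223 and 1330.0 in the same groups. Rat 2 of the E2 + 3-MC group was the lowest of its group in Csn2, Csn1s2a, Wap and Prlr. That was not particular to these genes. The luminal list stood at 0.49, 0.13 and 0.35 in rats 1, 2 and 3 of this group. Rat 2 was also the lowest in the adipocyte and endothelial lists and in the alveolar genes given below, and the highest in the lymphocyte list. The log2 changes were 3.97 with E2 and 3.45 with E2 + 3-MC for Csn2 (limma adjusted p = 0.00247 and 0.0125), and 3.86 and 3.01 for Csn1s2a (limma adjusted p = 7.57e-04 and 0.0108). Their differences between E2 + 3-MC and E2, -0.52 and -0.85, did not pass (limma adjusted p = 0.812 and 0.618). With E2 + 3-MC against vehicle, 2 members of the list passed, beside 0.163% of all probe sets. That count was 0 without vehicle rat 1, without E2+3-MC rat 1 or without E2+3-MC rat 3, and 4 without E2+3-MC rat 2. Against 3-MC 2 passed, beside 0.111% of all probe sets. The count was 4 without E2+3-MC rat 2, and 1 without any other rat except 3-MC rat 1.

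A pair of transcription factors in the list stood just outside the threshold with E2 and were singled out after their values had been seen. Elf5, a luminal factor that drives alveolar fate, read 797, 1088 and 793 with vehicle and 1396, 1419 and 1299.8 with E2 (log2 0.63, limma adjusted p = 0.0559). Bcl6, a repressor that STAT5 is known to lower, read 361, 268 and 358 with vehicle and 212, 237 and 181 with E2 (log2 -0.60, limma adjusted p = 0.0529). With E2 + 3-MC, Bcl6 read 295, 272 and 281, above all 3 E2 rats (log2 0.41, limma adjusted p = 0.479).

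Of 12 genes downstream of growth hormone that were tested, 2 fell with E2 and none rose, beside 1.58% of all probe sets in either direction. The median log2 change of the list was -0.30. The unadjusted p was under 0.05 for 6, all lower, beside 11.7% of all probe sets in either direction. Igfbp3, a carrier of insulin-like growth factors, read 1321, 1426 and 1015 with vehicle, 312, 457 and 463 with E2, 1099.5, 1166 and 427 with 3-MC, and 429, 504 and 432 with E2 + 3-MC. It fell by 1.58 on the log2 scale with E2 (limma adjusted p = 0.0192), and rat 3 was the only 3-MC rat at the level of the E2 rats. Lpl, lipoprotein lipase and also one of the adipocyte markers, changed by -0.72 (limma adjusted p = 0.0289). Igf1, the main growth factor induced by growth hormone, read 2696, 2362 and 2099 with vehicle and 1844, 1711 and 1979.7 with E2 (log2 -0.36, limma adjusted p = 0.365). Leaving out vehicle rat 1, or rat 1 or 2 of the E2 group, took the count of 2 to 0, and leaving out vehicle rat 2 or E2 rat 3 took it to 1.

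Of 15 genes of alveolar differentiation downstream of the prolactin receptor, 6 rose with E2 and none fell, and the median log2 change was 0.61. Over all probe sets 1.58% passed in either direction and 1.30% were higher. The luminal list had the same median log2 change with E2, 0.61. Areg, an epidermal growth factor receptor ligand that estrogen induces in the gland, read 44.1, 20.1 and 50.4 with vehicle, 572, 498 and 526 with E2, 70.0, 42.1 and 62.2 with 3-MC, and 356, 288 and 697 with E2 + 3-MC. It rose by 3.38 with E2 and by 3.04 with E2 + 3-MC on the log2 scale (limma adjusted p = 3.96e-05 and 2.00e-04). The tight junction gene Cldn7 (0.96), the luminal factor Gata3 (0.93) and the luminal keratin Krt18 (0.89) also rose with E2, and the tight junction gene Cldn3 (0.61) did so too. These 4 belong to the luminal markers counted above. The sixth gene was Erbb4 (0.84), a receptor that can activate STAT5. With E2 + 3-MC against vehicle Areg alone passed, beside 0.163% of all probe sets. In E2 + 3-MC against E2 none passed, and the median log2 change of the list was -0.24. At an unadjusted p under 0.05, 3 were lower there and none higher, beside 8.77% of all probe sets in either direction. In the interaction 4 were lower and none higher, beside 4.42%, with a median of -0.25. Leaving out vehicle rat 1, or rat 1 or 2 of the E2 group, took the count of 6 to 1, and leaving out vehicle rat 3 took it to 3.

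**Figure D4:**
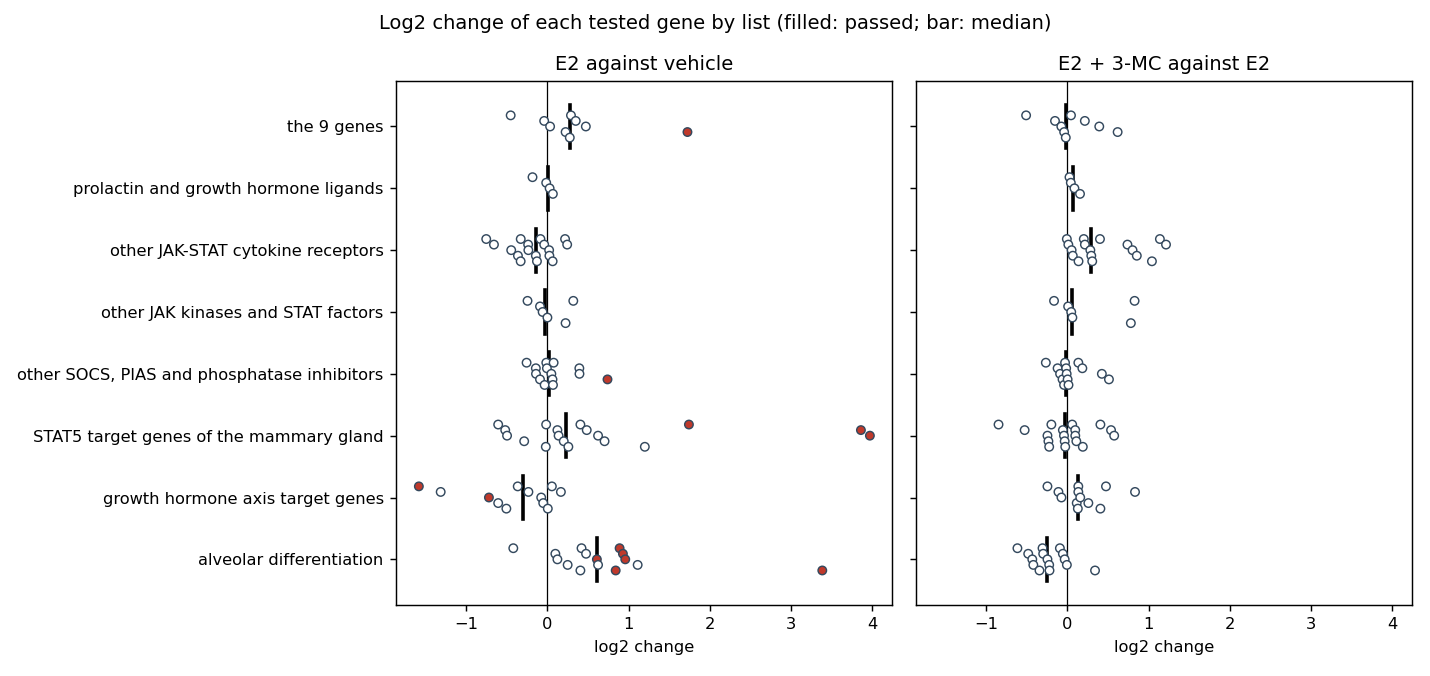
Log2 change (horizontal axis) of each tested gene by list (rows) for E2 against vehicle (left) and E2 + 3-MC against E2 (right), with filled points for genes that passed and a bar at each list's median. The filled points on the left are Prlr, Ptpn1, 3 STAT5 targets, 2 growth hormone targets and 6 alveolar genes, and there are none on the right.

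The genes whose log2 values followed Prlr most closely over the 12 arrays were Cd200, Plet1, Serpinb9, Cth and Stc2, with Pearson correlations of 0.980, 0.974, 0.968, 0.966 and 0.965 among 12419 genes. All 12 arrays enter each value and the 4 groups drive much of it, so these are descriptions of pattern. Cd200, a surface protein that restrains myeloid cells, had group means of 457 ± 13.5 with vehicle, 1216 ± 73.6 with E2, 549 ± 121 with 3-MC and 947 ± 127 with E2 + 3-MC (SD, n = 3), in the same order as Prlr. The most opposite genes were Fasn (-0.92), which makes fatty acids, Slc2a4 (-0.91), the insulin-responsive glucose transporter, and Slc25a1 (-0.89), the mitochondrial citrate carrier. Fasn read 2817 ± 737, 1177 ± 46.4, 2818 ± 518 and 1879 ± 195 in the same groups. Among the other members the correlation with Prlr was highest for Stat5a (0.60) and Socs2 (0.54) and lowest for Ghr (-0.63).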

How the data were processed

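Total RNA from whole mammary glands (RNA integrity number of at least 7) was hybridized to Affymetrix Rat Gene 1.0 ST arrays. The authors summarized probes to linear intensity values with PLIER in Expression Console, and those deposited intensities were used without further normalization. The methods add quantile normalization, a baseline at the control median and a filter in GeneSpring; the array medians differ, so the values used here were not at 1 common distribution. Of 29214 probe sets, 15310 carry 1 gene symbol, 323 several and 13581 none in the platform annotation, and no symbol needed an update. The probe set of Prlr does not separate its receptor isoforms.

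From log2(intensity + 16), limma 3.58.1 in R 4.3.3 tested the 23371 probe sets whose mean exceeded the 20th percentile, with all 4 groups in 1 model, two-sided, with Benjamini-Hochberg adjustment over all of them. A probe set passed at an adjusted p under 0.05 and at least 1.5-fold. Fold changes are on the log2(intensity + 16) scale and understate those of dim genes. The number of arrays limits the precision. Python 3.11.15 and matplotlib 3.10.9 were used for descriptions and figures, and the procedure was tested on simulated data. The members and lists were chosen with earlier results of these data known. Named genes were all members, all ligand genes, for each other pathway list the 4 largest changes among genes that passed, and the 5 most and 3 least correlated with Prlr; Elf5, Bcl6, Igf1, Erbb4 and Cldn3, and the tissue markers Epcam, Adipoq, Acta1, Krt14 and Krt17, fall outside this rule.

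Rat numbers run from 1 to 3 in each group, with no statement that they mark shared litters or days. Each array's differences from its group mean correlated at 0.341, 0.442 and 0.564 between same-numbered vehicle and 3-MC arrays. On this ground alone a pairing by number was tried in these 6 arrays. The skeletal muscle list stood at log2 1.65, 2.17 and -3.79 in vehicle rats 1, 2 and 3. In the 3-MC rats it stood at 0.98, 1.64 and -3.54. The part of muscle in these correlations was not tested. Between same-numbered vehicle and E2 arrays the correlations were 0.198, -0.202 and 0.041. For E2 and E2 + 3-MC they were 0.130, 0.081 and 0.137. Alternatives changed the filter, pseudocount, normalization, model, threshold and test, added a replicate block, or left out each rat in turn; the block within the 6 arrays of vehicle and 3-MC was added after seeing the data. A group left with fewer rats was assumed to vary like the others.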

Additional observations from a re-analysis of the deposited data

How the results depend on the processing

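Of 28 other settings, 12 left out a rat. The count of members that passed with E2 against vehicle was 1 in all but the methods' t-test with Benjamini-Hochberg adjustment, where it was 0 (Prlr adjusted p = 0.154) and 7 of 23371 probe sets passed. With E2 + 3-MC against vehicle it was 0 under that t-test (Prlr adjusted p = 0.632; 0 of all probe sets passed), and 0 to 1 when a rat was left out. With E2 + 3-MC against E2 the count was 1 in limma on 2 groups and 1 in the unadjusted t-test (Socs1 in both), beside 359 and 486 of 23371 probe sets, or 1.54% and 2.08%; against 3-MC it was 1 in the unadjusted t-test (Prlr), beside 125, or 0.535%. The log2 change of Prlr with E2 was 1.65 to 1.80 over the settings that kept every rat and 1.60 to 1.83 without a rat. With a replicate block over the 4 groups the counts of members were 1, 0, 1, 0, 0 and 0 in the order of the 6 comparisons, as without it; pairing vehicle and 3-MC in their 6 arrays also gave 0 (Prlr adjusted p = 0.525). Of 52 member values that did not pass, 22 took the other sign in some setting. The mean over several probe sets was not run because each member has 1. The cause of these differences between settings was not tested. Groups of 3 rats leave wide intervals, and the log2 difference of Socs1 between E2 + 3-MC and E2 ran from 0.51 with the larger alternative constant added to intensities to 0.77 with the smaller.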
